A study of Homo sapiens with 9 samples.

Results

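The subtelomeric peaks are the ChIP-nexus peaks of ZNF143, CTCF and RAD21 that lay in the outermost 300 kb of chromosomes 1 to 22. They were chosen by position alone. A peak counted as subtelomeric if it ended at or before base 300000 of its chromosome, or began within 300 kb of the highest peak end that any of the 9 peak lists gave for that chromosome. The rule took 2918 of 342945 peaks, or 0.851%. Of the 44 chromosome ends, 39 held at least 1 peak. The other 5 were the short-arm ends of chromosomes 13, 14, 15, 21 and 22, where no list had a peak. The 39 windows covered 11.7 Mb, 0.437% of the length compared. Merging overlapping peaks of the 9 lists gave 708 subtelomeric sites.

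ChIP-nexus recovers DNA bound by a protein with an antibody and digests it with exonucleases up to the protein's edge, which places binding sites narrowly. The cells were HEC-1-B, a human uterine adenocarcinoma line, and lines derived from it. Wild-type cells (WT) had lists for ZNF143, CTCF and RAD21, and the ZNF143KO cells (KO), in which ZNF143 is knocked out, had lists for CTCF and RAD21. CTCF-AID cells carry CTCF tagged with an auxin-inducible degron and had lists for ZNF143 and CTCF before auxin (0 h) and after 24 h of it, where auxin triggers degradation of the tagged protein. The protocol in the labels gives auxin at 500 μM in cells expressing TIR1. Whether the derived lines are single clones was not given in the sources used here, and the knockout and the degradation were taken from the labels. All 9 groups consisted of a single library. No significance test between conditions was therefore possible, and no difference has a replicate check. All intervals are 95% and cover counting error only. Peaks of 1 chromosome end are not independent of each other, so these intervals are narrower than the uncertainty over ends.

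CTCF is a zinc-finger protein that binds DNA in a defined orientation and stops cohesin, the ring complex that extrudes chromatin loops. RAD21 is the subunit that closes that ring, and ZNF143 is a zinc-finger transcription factor found at many promoters and at CTCF sites. Human subtelomeres lie between the terminal TTAGGG repeats and the unique part of each chromosome arm, are built from segments duplicated among many chromosomes, and are rich in genes at several ends. CTCF and cohesin are known to bind in subtelomeres near the start of transcription of the telomeric RNA TERRA. Short reads from duplicated segments can align to several ends, and how such reads were handled was not given in the sources used here.

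Peaks of all 9 lists were denser in the outermost 300 kb than in the rest of the same chromosomes. In wild-type cells there were 326 subtelomeric ZNF143 peaks, 390 CTCF peaks and 373 RAD21 peaks. These were 0.911%, 0.761% and 0.791% of their lists. The densities were 27.9, 33.3 and 31.9 peaks per Mb, against 13.3, 19.1 and 17.5 in the rest. The ratio of densities was 2.1 for ZNF143 (1.87 to 2.34), 1.75 for CTCF (1.58 to 1.93) and 1.82 for RAD21 (1.64 to 2.01). All 3 factors were therefore enriched by position, and for ZNF143 the density was higher at the ends than in the rest on 19 of the 22 chromosomes, for CTCF and RAD21 on 20.

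The knockout and CTCF-AID lists had the same direction. The knockout lists held 448 subtelomeric CTCF and 453 RAD21 peaks, with density ratios of 1.68 (1.53 to 1.84) and 1.90 (1.73 to 2.08). In CTCF-AID cells the 326 ZNF143 peaks at 0 h had a ratio of 2.23 (1.99 to 2.48), and the 196 at 24 h a ratio of 2.81 (2.43 to 3.24). For CTCF there were 263 peaks at 0 h with a ratio of 2.06 (1.82 to 2.33) and 143 at 24 h with a ratio of 2.44 (2.05 to 2.87). Both auxin series thus had fewer subtelomeric peaks at 24 h and, with 300 kb windows, a higher ratio to the rest. For CTCF the order of the ratios turned with 1 Mb windows (1.69 at 0 h, 1.65 at 24 h), and without the outer 20 kb they were 1.79 and 1.84. Whether the ratios differ between 0 h and 24 h was not tested.

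The excess was not spread evenly over the 300 kb. In the first 20 kb the density was 69.2 CTCF, 70.5 ZNF143 and 82.1 RAD21 peaks per Mb in wild type, and 100 RAD21 peaks per Mb in the knockout. From 20 to 50 kb the wild-type densities fell to 32.5, 26.5 and 29.1. The 24 h CTCF list had the steepest profile, with 53.8 peaks per Mb in the first 20 kb and between 4.10 and 16.2 in the bins from there to 300 kb. Part of this step is fixed by the rule, because on the long arms the end is set at the outermost peak of any list. Without the outermost site of each of the 22 long-arm ends, the first 20 kb held 56.4 CTCF, 47.4 ZNF143 and 56.4 RAD21 peaks per Mb in wild type and 41.0 CTCF peaks per Mb at 24 h, still above the next bin. The 17 short-arm windows are counted from base 1 and have no such peak. There the first 20 kb held 52.9 CTCF, 55.9 ZNF143 and 58.8 RAD21 peaks per Mb in wild type, although no short-arm peak began before base 10004. Between 500 kb and 1 Mb from the end the wild-type CTCF density was 31.8 peaks per Mb, so the outer 1 Mb as a whole was denser than the rest.

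**Figure D1:**
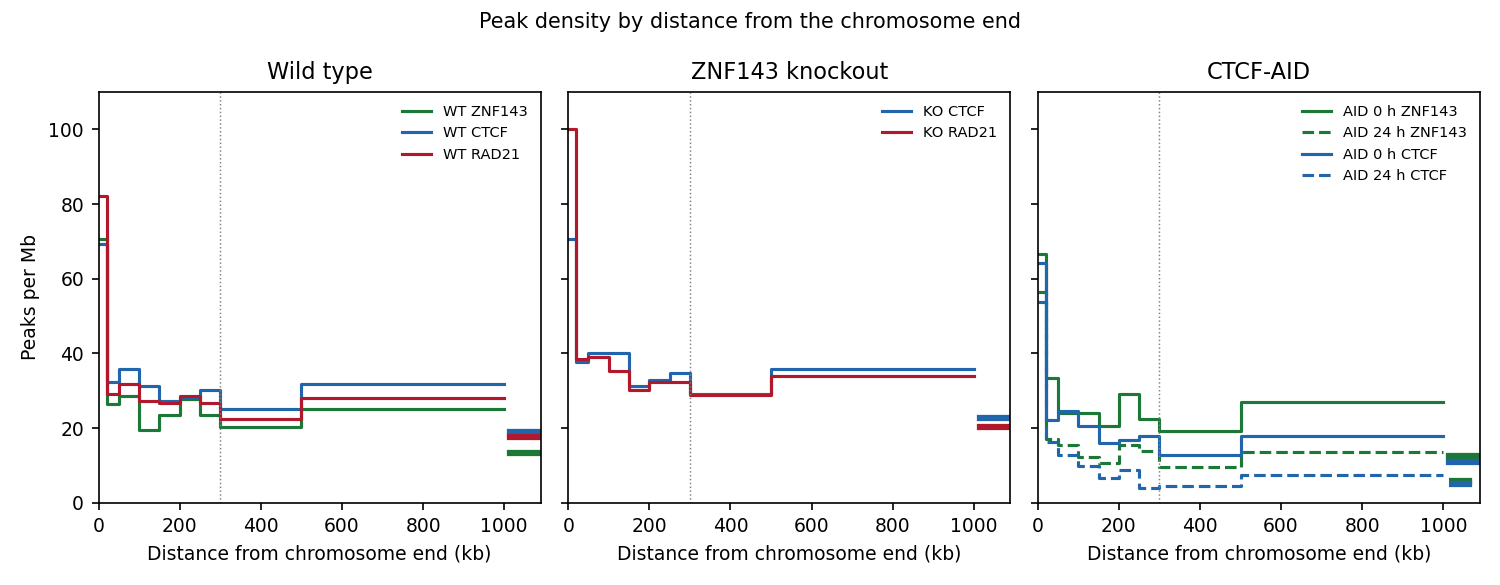
Peaks per Mb (vertical axis) by distance from the chromosome end in kb (horizontal axis) for the 39 ends with peaks, in wild-type, ZNF143 knockout and CTCF-AID cells. Thick marks at the right give the density in the rest of chromosomes 1 to 22, dashed lines are 24 h of auxin, and the dotted line marks 300 kb. The first 20 kb is the highest bin in all 9 lists, reaching 100 for RAD21 in the knockout.

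The number of peaks differed widely between ends. Summed over the lists, 14q had 186 peaks, 19q had 153 and 18p had 122. The lowest counts were 25 at 3p, 28 at 21q and 31 at 7q. A single end held between 2 and 31 wild-type CTCF peaks, with a median of 10, against a median of 5 in the 8879 tiles of 300 kb in the rest. In that list 31 of the 39 ends lay above the tile median. The range over the 9 lists was 31 to 36 ends.

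The end of 14q was rich in CTCF and RAD21 peaks. The wild-type lists had 14 ZNF143, 31 CTCF and 23 RAD21 peaks there, and the knockout lists 40 CTCF and 30 RAD21 peaks. At 0 h the CTCF-AID cells had 27 CTCF and 14 ZNF143 peaks there, and at 24 h they had 7 CTCF and 0 ZNF143 peaks. In the RefSeq annotation of the newer assembly GRCh38.p14, the outermost genes of 14q are variable segments of the immunoglobulin heavy-chain locus IGH, a locus known for arrays of CTCF sites. Peak positions here are on hg19, for which no annotation was used, so no peak was assigned to a gene. The 14q peaks at 107183266 to 107183373 in wild type and 107183267 to 107183394 in the knockout were the subtelomeric CTCF peaks of highest fold enrichment, 33.8 and 28.5. Fold enrichment is the authors' value for a peak over the local background of their peak caller and ranks peaks only within a list.

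At some ends wild-type ZNF143 peaks outnumbered CTCF peaks, such as 12q (8 and 3) and 8q (16 and 13), though not at most ends. In the rest of chromosome 19 the wild-type densities were 35.7 ZNF143 and 34.6 CTCF peaks per Mb. The end of 19q differed from 14q in being led by ZNF143. It held 25 ZNF143, 15 CTCF and 20 RAD21 peaks in wild type and 14 CTCF and 22 RAD21 peaks in the knockout. At 0 h and 24 h of auxin it held 22 ZNF143 peaks each time, while CTCF peaks went from 9 to 4. In GRCh38.p14 the outermost protein-coding genes there are MZF1, a zinc-finger transcription factor, UBE2M, a NEDD8-conjugating enzyme, CHMP2A, an ESCRT-III subunit, and TRIM28, the corepressor of KRAB zinc-finger proteins. The end of 18p had a nearly even spread over the lists, from 10 CTCF peaks at 24 h to 16 CTCF and 16 RAD21 peaks in the knockout. The ends with the fewest peaks lie in GRCh38.p14 beside CHL1, a neural adhesion gene (3p), PRMT2, an arginine methyltransferase (21q), and VIPR2, a receptor for vasoactive intestinal peptide (7q).

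**Figure D2:**
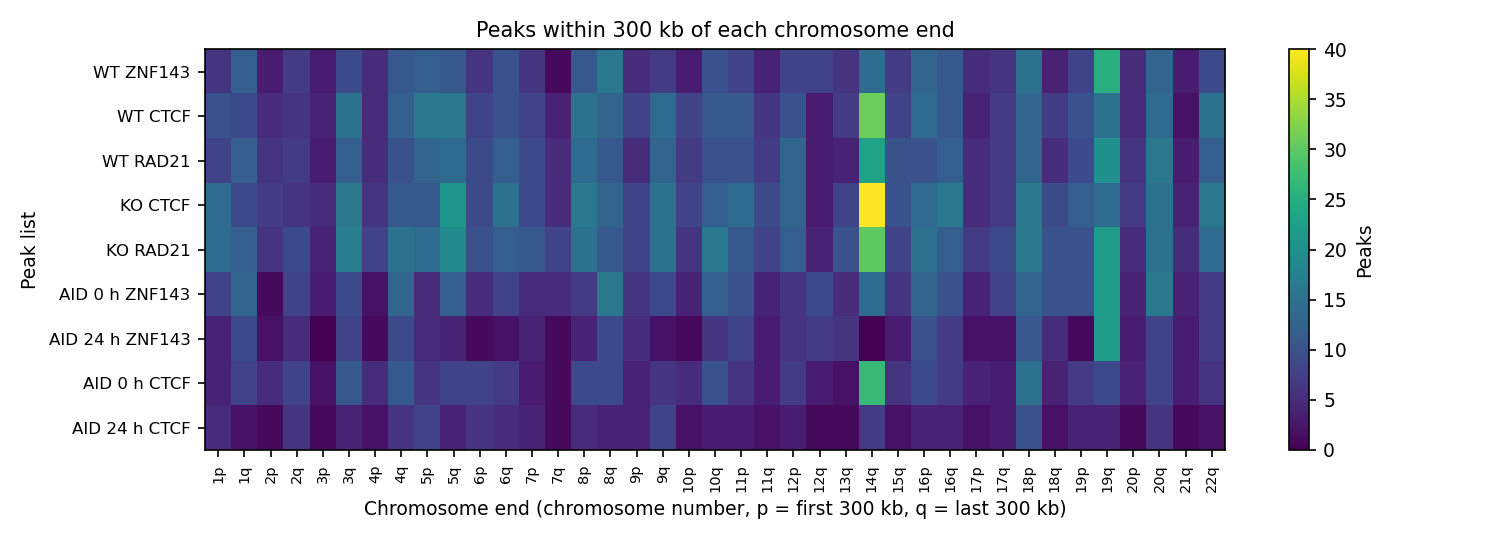
Number of peaks (colour) within 300 kb of each of the 39 chromosome ends (horizontal axis) in each of the 9 lists (vertical axis). CTCF and RAD21 peaks concentrate at 14q, up to 40 CTCF peaks in the knockout, and ZNF143 peaks at 19q, with 22 at both 0 h and 24 h of auxin.

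Fold enrichment placed the subtelomeric peaks differently for each factor. The subtelomeric median was 11.1 for wild-type ZNF143 against 10.3 in the rest, and 53.1% of the subtelomeric peaks (47.5 to 58.6) lay above the list median, where the whole list has 49.9%. For wild-type CTCF the medians were 14.3 and 14.6, with 49.2% above the list median (whole list 50%). For wild-type RAD21 they were 11.2 and 13.8, with only 38.3% (33.4 to 43.5) above the median (whole list 50%). Subtelomeric RAD21 peaks thus ranked lower than the rest of their list, and the same held in the knockout, where 36.2% of RAD21 peaks (31.8 to 40.8) and 42.4% of CTCF peaks were above the median, against 49.9% and 50% of the whole lists. In CTCF-AID cells the ZNF143 shares were 54.6% at 0 h and 64.3% (57.1 to 71.0) at 24 h, and the CTCF shares 42.6% and 42.0% (whole lists between 49.9% and 50%). ZNF143 peaks at 24 h were the list in which subtelomeric peaks ranked highest.

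The local background moved with position and can change a fold enrichment. A summit read count and a background were solved for each peak from its fold enrichment and −log10 p. For subtelomeric peaks within 20 kb of an end the median background was 2.13, 1.86 and 1.49 times that of the rest for wild-type ZNF143, CTCF and RAD21. It was 2.62 times for CTCF at 0 h and 2.97 times at 24 h. From 20 to 300 kb the ratio ranged from 0.912 to 1.27 over the 9 lists. In the 24 h ZNF143 list the ratio was 1.31 within 20 kb and 1.27 beyond. The background was thus higher near the end in the other 8 lists and about evenly raised in that one, and its part in the results below was not tested.

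**Figure D3:**
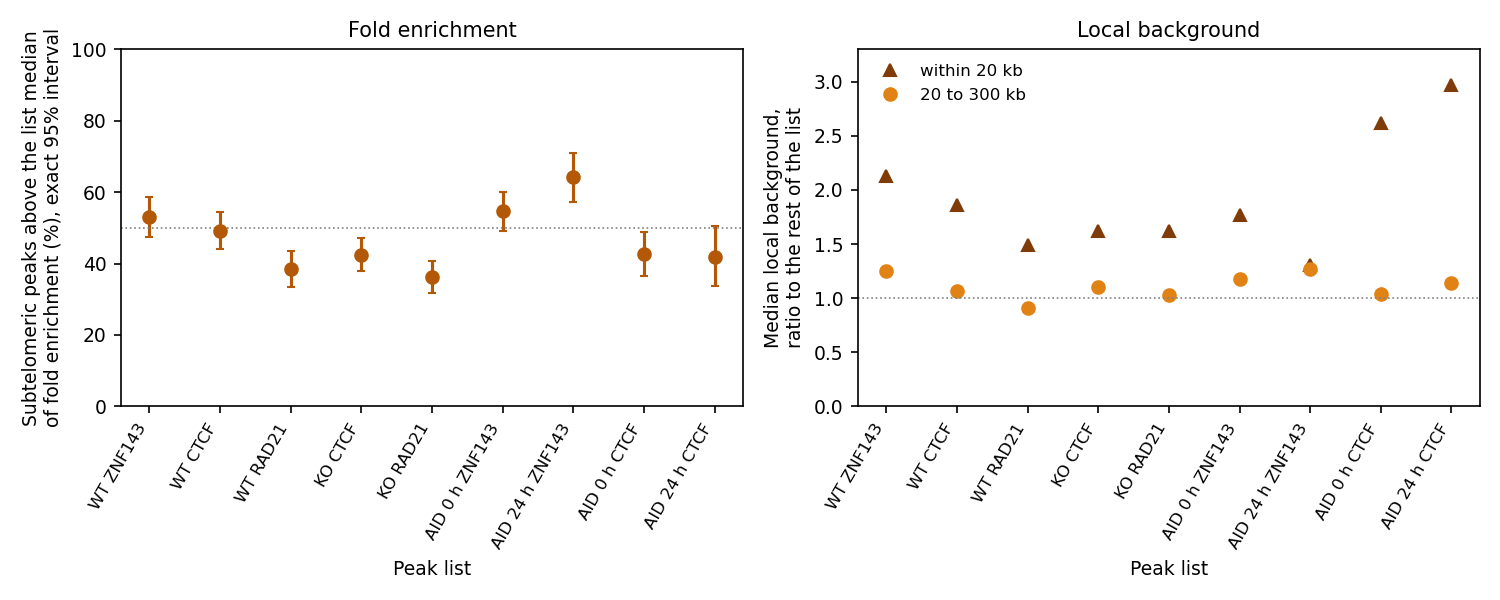
Left, share of subtelomeric peaks above their list's median fold enrichment in percent, with exact 95% intervals, for the 9 lists. Right, median local background of subtelomeric peaks as a ratio to the rest of the list, within 20 kb of an end (triangles) and from 20 to 300 kb (circles). RAD21 shares lie near 36.2% to 38.3%, the 24 h ZNF143 share is 64.3%, and the background within 20 kb reaches 2.97 times the rest.

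Factor overlap in wild type was compared next, where 1 shared base was enough for an overlap. Of the 326 subtelomeric ZNF143 peaks, 205 (62.9%, 57.4 to 68.1) overlapped a CTCF peak, against 73.1% in the rest and 73.0% of the whole list. The difference was -10.2 percentage points (-15.6 to -5.10), and -6.63 once the rest was given the subtelomeric peaks' distribution of fold enrichment over 10 signal groups. RAD21 overlapped 222 of the ZNF143 peaks (68.1%), against 72.8% of the whole list, a difference from the rest of -4.73 points (-10.0 to 0.11) that turned to 4.69 with 100 kb windows. Subtelomeric ZNF143 peaks therefore coincided less often with CTCF, and for RAD21 the interval included 0.

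Beside the shortfall with CTCF there was an excess of ZNF143 peaks that met RAD21 without a wild-type CTCF peak. These were 29 of 326 (8.90%, 6.04 to 12.5) in subtelomeres and 1.89% in the rest, a difference of 7.01 points (4.37 to 10.6). The mirror class, RAD21 peaks with ZNF143 but no wild-type CTCF peak, held 31 of 373 (8.31%) against 1.38%. In the first 20 kb these classes took 13 of 55 ZNF143 peaks (23.6%) and 15 of 64 RAD21 peaks (23.4%). Only the wild-type CTCF list was used here, so these are not sites free of CTCF in every list. The site 1p 10012 to 10238 had wild-type ZNF143 and RAD21 peaks but no wild-type CTCF peak. In CTCF-AID cells it had CTCF peaks with fold enrichments of 7.81 at 0 h and 7.67 at 24 h. Overlap with both partners was found for 59.2% of subtelomeric ZNF143 peaks and 70.9% of the rest, and with neither for 28.2% and 25.05%.

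Seen from CTCF and RAD21, most overlaps differed little from the rest of the list. Of the 390 CTCF peaks, 283 (72.6%) met RAD21, against 76.1% of the whole list, a difference from the rest of -3.61 points (-8.26 to 0.60). ZNF143 was at 198 of them (50.8%), against 50.8% of the whole list, with a difference from the rest between -4.99 and 4.93 points. Of the RAD21 peaks, 291 of 373 (78.0%) met CTCF, against 82.9% of the whole list, and 222 (59.5%) met ZNF143, against 55.2%. The first difference from the rest was -4.92 points (-9.41 to -0.999), or -1.61 at equal fold enrichment and -3.32 (-8.18 to 0.806) without the outer 20 kb, and the second 4.39 (-0.68 to 9.27), or 10.9 at equal fold enrichment.

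**Figure D4:**
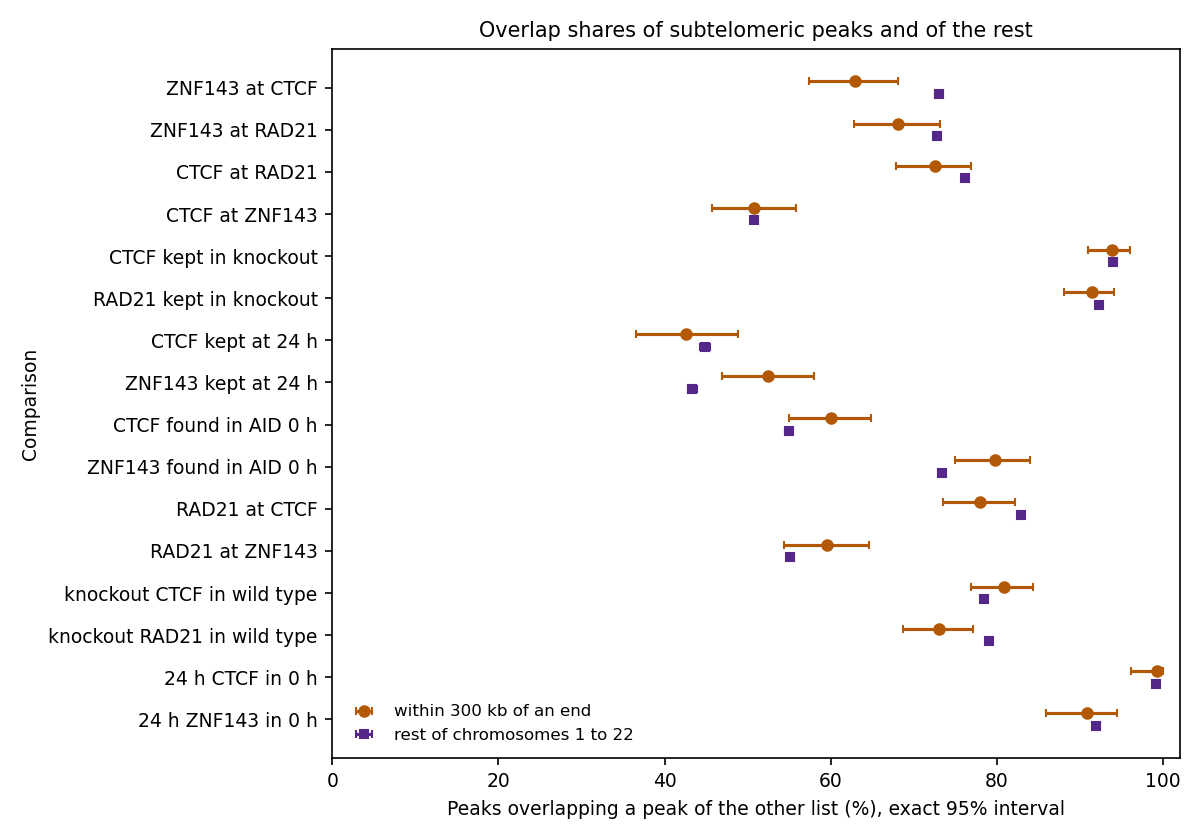
Share of peaks of the first-named list that overlap a peak of the second, in percent with exact 95% intervals, for subtelomeric peaks (circles) and the rest of chromosomes 1 to 22 (squares), for the 16 pairs compared. The widest gaps are for ZNF143 at CTCF (62.9% against 73.1%) and ZNF143 kept at 24 h (52.5% against 43.4%).

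Some subtelomeric sites had a peak in every list. Of the 708 sites, 40 had a peak in all 9 lists and 174 in only 1. Sites of the rest of the chromosomes were not counted in this way, so it is open whether these counts are unusual. The site with the highest lowest rank was at 9p, 88628 to 88957. Its fold enrichment was 19.0 for ZNF143, 28.2 for CTCF and 22.4 for RAD21 in wild type and 20.9 (CTCF) and 16.3 (RAD21) in the knockout. In CTCF-AID cells it was 20.2 and 12.9 for ZNF143 at 0 h and 24 h and 23.6 and 13.0 for CTCF. No list ranked this site below its percentile 62.7. The next were 16q 90148312 to 90148663, 16p 146926 to 147256, 13q 114992217 to 114992523 and 7p 31212 to 31486. At these 4 sites the 24 h CTCF percentiles were 98.9, 97.6, 97.6 and 73.5, and the 24 h ZNF143 percentiles 57.8, 55.9, 53.1 and 54.4. All 5 sites had a higher percentile in the 24 h CTCF list than in the 24 h ZNF143 list. The percentiles of all 9 lists also chose these 5 sites, so this order is not a separate result.

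The highest ranks of the 24 h CTCF list were crowded with subtelomeric peaks. This was seen in the values and followed up afterwards. Of the 143 subtelomeric CTCF peaks at 24 h, 14 (9.79%, 5.46 to 15.9) were in the top 1% of the list by fold enrichment, where the whole list has 1.01%. In the other 8 lists the subtelomeric share in the top 1% ranged from 0.268% for wild-type RAD21 (whole list 0.997%) to 2.23% for knockout CTCF (whole list 0.999%). The 14 peaks lay at 14 different ends, 1p, 2q, 3q, 7p, 9p, 9q, 10q, 11p, 11q, 12p, 15q, 16p, 16q and 19q. Among them are 1p 11118 to 11680, 9p 11155 to 11703, 9q 141120917 to 141121662, 15q 102519509 to 102520052 and 19q 59117441 to 59118041. Other members were far from the end, such as 11p 180164 to 180766, 12p 93961 to 94513 and 16q 90182278 to 90183000.

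These 14 sites were alike in length and in several values of the other lists. Strong 24 h CTCF peaks of the rest were not compared for these values. A site's length is that of its merged peaks, so it depends on how many lists have one. The 14 were 479 to 753 bp long with a median of 582 bp. The 28 other sites found in all 9 lists were 164 to 775 bp long with a median of 282 bp. Apart from the 24 h CTCF list, which chose them, all 14 had a peak in every list except 24 h ZNF143, where 12 did. Of the whole 24 h CTCF list 99.1% overlapped a 0 h CTCF peak. Their median percentile of fold enrichment was 91.6 for wild-type ZNF143 and 90.3 for ZNF143 at 0 h. For CTCF it was 66.8 in wild type, 41.7 in the knockout and 46.4 at 0 h, and 99.4 at 24 h, which chose them. The peak at 9p had fold enrichments of 18.5 for CTCF in wild type, 14.01 in the knockout, 16.7 at 0 h and 22.99 at 24 h, the highest subtelomeric value of that last list. So these sites ranked near the middle of the 0 h and knockout CTCF lists and at the top of the 24 h list. Ranks in lists of unequal length do not show a change in binding.

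The read counts behind those ranks give the sites another order. Summit counts were 84 to 88 at 0 h, where the highest count of the whole list was 88, and 28 to 47 at 24 h, where it was 48. In wild type they were 47 to 54 with a list maximum of 54, and in the knockout all 14 were at the maximum of 50. The sites were thus at or near the highest count in the wild-type, knockout and 0 h CTCF lists. The sites 1q 249238340 to 249238939 and 21q 48117923 to 48118555, not among the 14, also had the maximum in each of these lists. How much of each whole list was at its maximum was not computed. Of the 14 sites at 24 h, 11q with 28 reads, 19q with 31 and 10q with 36 lay well under the maximum of 48. The median local background of the 14 sites was 4.50 times that of the rest in wild type, 3.27 in the knockout, 4.44 at 0 h and 5.43 at 24 h. The 24 h medians behind this were 1.05 and 0.194 reads. Fold enrichment is the count over this background after 1 is added to both, so it changes by less than the background ratio. The part of capped counts, of the background and of reads shared between duplicated ends in this pattern was not tested.

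**Figure D5:**
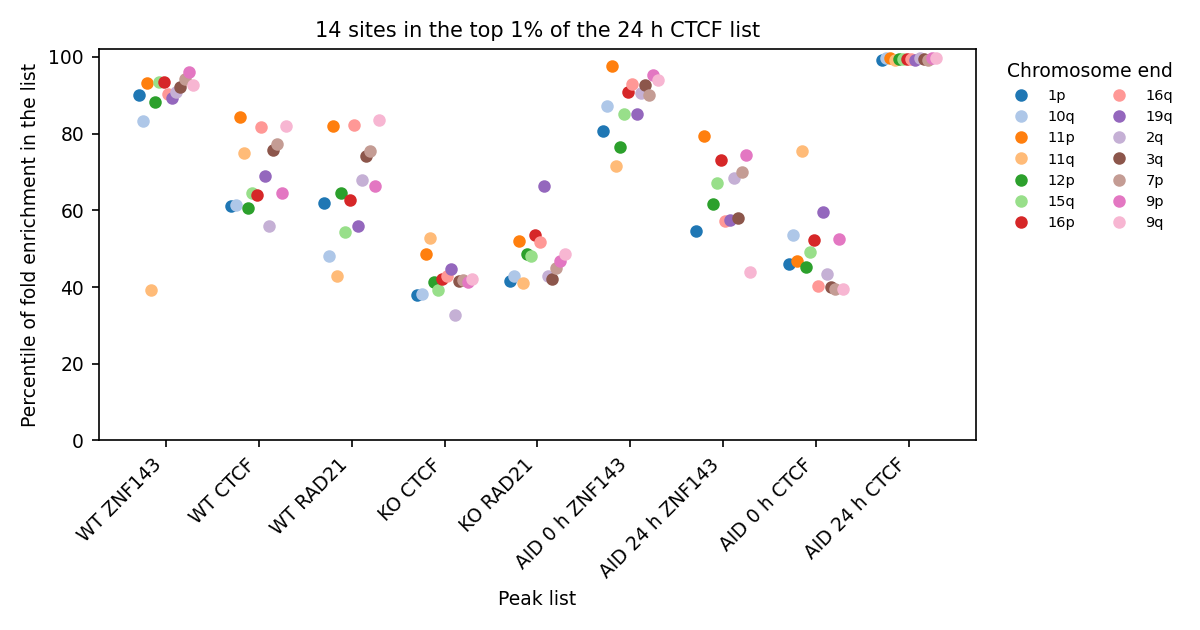
Percentile of fold enrichment within the list (vertical axis) of the 14 subtelomeric sites in the top 1% of the 24 h CTCF list, in each of the 9 lists (horizontal axis); colours are chromosome ends. The 24 h CTCF column was used to choose the sites and lies above 99.1, while the knockout CTCF column lies between 32.7 and 52.8.

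Other sites within 20 kb of an end had the opposite order of ranks. At 18q, the site 78015744 to 78015969, which is 472 bp from the end, ranked at percentile 98.8 for CTCF in wild type, 99.95 in the knockout and 98.1 at 0 h, but 7.45 at 24 h. At 2q, the site 243175697 to 243175980 had CTCF percentiles of 96.0, 94.7, 96.6 and 34.0 in the same order. The site at 5q, 180889815 to 180890223, ranked 68.1, 74.5, 62.7 and 31.0. None of these 3 sites had a 24 h ZNF143 peak, although all had one at 0 h. They were named after their values were seen.

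A further class of site near the ends carried ZNF143 in CTCF-AID cells and had no CTCF peak in wild type or knockout. Within 20 kb of an end there were 89 sites at 30 ends. Of these, 19 (21.3%) at 14 ends had ZNF143 peaks at 0 h and 24 h of auxin but no wild-type or knockout CTCF peak, against 14.4% of the 619 sites farther in. RAD21, the cohesin subunit, was present at part of both groups. A wild-type RAD21 peak was at 10 of the 19 outer sites and at 17 of the 89 such sites farther in, and a knockout RAD21 peak at 13 and at 21. These differences were not tested. Over all sites, with a peak of any list counted, RAD21 was also more frequent near the ends. Of all 89 sites within 20 kb, 42 had RAD21 with CTCF and ZNF143, 21 with CTCF only, 4 with ZNF143 only and 5 with neither. Of all 619 sites farther in, these counts were 182, 144, 20 and 47. The higher RAD21 share of the outer group is therefore not shown to be particular to this class. CTCF peaks of the CTCF-AID cells were called at 11 of the 19 at 0 h and at 8 at 24 h, with median percentiles of 16.0 and 36.6. In all, 12 of the 19 had a CTCF peak in at least 1 CTCF-AID list and 7 had none in any list. These groups were also formed after the values were seen.

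Several of these sites were the outermost of their chromosome end. On the long arms the end is set at the outermost peak of any list, so each long arm has an outermost site by the rule. At 4p, the site 10006 to 10198 had ZNF143 fold enrichments of 15.4 in wild type, 16.0 at 0 h and 24.4 at 24 h. Its RAD21 values were 9.55 in wild type and 9.76 in the knockout, and its CTCF values 8.04 at 0 h and 10.3 at 24 h. At 19q, 59118907 to 59118979, the ZNF143 values were 9.89, 20.9 and 22.3, with RAD21 called only in the knockout at 7.41. CTCF was called there at 9.14 at 0 h and 6.31 at 24 h. At 2q, 243184966 to 243185030, the ZNF143 values were 15.3, 21.8 and 17.3, with no CTCF peak in any list. The ZNF143 peak of highest fold enrichment in subtelomeres at 0 h, 31.7, was also outermost, at 7q 159128576 to 159128638. Its site is not in this class, because it had a wild-type CTCF peak with a fold enrichment of 11.4. ZNF143 peaks within 20 kb had a median percentile of 49.8 in wild type, 73.8 at 0 h and 59.0 at 24 h. They thus stood higher in the list of the CTCF-AID line than in that of wild type, both without auxin.

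Knockout of ZNF143 left most subtelomeric CTCF and RAD21 peaks in the list. Of the 390 wild-type CTCF peaks, 366 (93.8%, 91.0 to 96.0) overlapped a knockout peak, the same as the 93.9% of the whole list. The difference from the rest was -0.09 points (-2.93 to 1.91). Of the 373 RAD21 peaks, 341 (91.4%, 88.1 to 94.1) were kept, against 92.3% of the whole list, a difference of -0.88 points (-4.17 to 1.57). At an overlap of 1 base both intervals included 0. Other settings moved this. RAD21 kept was -7.60 points (-12.3 to -3.37) at 50% reciprocal overlap and -4.37 (-8.53 to -0.866) with both lists at the shorter size, and CTCF kept was -3.21 (-4.99 to -1.69) with 1 Mb windows. The lists were not made alike. Knockout peaks reached down to a −log10 q of 5.00, and wild-type peaks to 3.004 for CTCF and 3.002 for RAD21. The median background of the rest was 0.419 reads in wild-type and 0.798 in knockout CTCF, and 0.336 and 0.964 for RAD21, so depth and genotype cannot be told apart.

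The 24 lost CTCF peaks lay at 13 of the 39 ends and the 32 lost RAD21 peaks at 18, with at most 6 at an end for CTCF (5p) and 5 for RAD21 (19q). For CTCF, among the 34 ends with at least 5 of them the lowest share was 62.5%, at 5p. At 14q all 31 CTCF and all 23 RAD21 peaks were kept, whereas 19q kept 12 of 15 CTCF and 15 of 20 RAD21 peaks. Within 20 kb of an end 45 of 54 CTCF peaks (83.3%, 70.7 to 92.1) were kept, against 321 of 336 (95.5%) farther in. Of the 9 lost there, 6 were at 5p between 10095 and 11516, with fold enrichments of 4.50 to 6.35, inside a single merged site of 1749 bp. Without 5p the share within 20 kb was 93.6%, so the lower share rested on that end.

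The 9 lost CTCF peaks within 20 kb all overlapped a ZNF143 peak. Over the whole 300 kb such peaks were kept in 188 of 198 cases (94.9%, 90.9 to 97.6) against 98.99% in the rest, a difference of -4.04 points (-8.03 to -1.75). Without 5p it was 183 of 187 (97.9%), a difference of -1.13 points (-4.36 to 0.185), so the difference rested on that end. Within 20 kb they were kept in 26 of 35 cases, or 25 of 28 without 5p, and farther in, in 162 of 163. CTCF peaks without ZNF143 were kept in 178 of 192 cases (92.7%) against 88.7% in the rest, and in 19 of 19 within 20 kb. The strongest peak lost was at 7p, 10012 to 10071, with a fold enrichment of 16.0 and 19 reads at its summit, and another was at 7q, 159128590 to 159128635, at 11.4 with 13 reads. The strongest RAD21 peak lost, at 1q 249240559 to 249240588, had 9.67 and 16 reads. The strongest gains were a CTCF peak at 17p, 13451 to 13528, at 17.9, and a RAD21 peak at 13q, 114909316 to 114909441, at 13.9.

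Read from the knockout, 362 of 448 CTCF peaks (80.8%) were already in wild type, against 78.5% of the whole list. For RAD21 the count was 331 of 453 (73.1%), against 78.9% of the whole list. The RAD21 difference from the rest was -5.93 points (-10.2 to -2.03). It turned to 1.66 when the rest was given the same distribution of fold enrichment, so the larger share of knockout-only RAD21 peaks in subtelomeres went with their lower fold enrichment.

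Fewer subtelomeric CTCF and ZNF143 peaks were called at 24 h of auxin than at 0 h. Of the 263 CTCF peaks at 0 h, 112 (42.6%, 36.5 to 48.8) overlapped a 24 h peak, against 44.8% of the whole list. The difference from the rest was -2.27 points (-8.13 to 3.80), and 4.21 at equal fold enrichment, so its direction depended on that choice. With both lists at the shorter size it was -10.98 (-20.4 to -2.94), and with 1 Mb windows -5.56 (-9.13 to -1.88). Of the 143 CTCF peaks at 24 h, 142 were in the 0 h list (99.3%, whole list 99.1%). With the 0 h list cut to the length of the 24 h list by fold enrichment, the difference from the rest was -29.1 points (-37.2 to -21.0), against 0.190 uncut. In the uncut lists the exception was a peak of 8 reads at 7p, 10200 to 10227. The median background of the rest was 1.10 reads at 0 h and 0.194 at 24 h. Read depth itself is unknown, so depth and auxin cannot be told apart.

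CTCF peaks with ZNF143 made up 109 of the 112 that were kept. With a ZNF143 peak at 0 h, 109 of 165 were kept (66.1%, 58.3 to 73.2; 67.3% in the rest), and without one, 3 of 98 (3.06%, 0.636 to 8.69; 5.28% in the rest). Partner and fold enrichment went together: in wild type ZNF143 was at 84.9% of the subtelomeric CTCF peaks in the stronger 50% of the list and at 17.7% of those in the weaker 50%. Within 20 kb of an end 31 of 50 CTCF peaks were kept (62.0%, 47.2 to 75.3), and beyond it 81 of 213 (38.0%, 31.5 to 44.9). Beyond 20 kb the share was 6.83 points under that of the rest (difference -6.83, -13.1 to -0.13). The strongest CTCF peak lost was at 10q, 135311027 to 135311168, with a fold enrichment of 27.1 and 48 reads, without a counterpart at 24 h.

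Subtelomeric ZNF143 peaks were kept at 24 h more often than those of the rest. Of the 326 at 0 h, 171 (52.5%, 46.9 to 58.0) overlapped a 24 h peak, against 43.4% of the whole list. The difference from the rest was 9.10 points (3.66 to 14.5). At equal fold enrichment it was 4.12 points, and without the outer 20 kb it was 4.46 (-1.41 to 10.4), so less than the full difference was left farther in. In the outer 20 kb 40 of 52 (76.9%, 63.2 to 87.5) were kept. In the other direction 178 of the 196 ZNF143 peaks at 24 h (90.8%) were in the 0 h list, against 91.9% of the whole list.

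CTCF at the same site at 0 h marked a lower share of kept ZNF143 peaks. Among ZNF143 peaks that overlapped a 0 h CTCF peak 75 of 180 (41.7%, 34.4 to 49.2) were kept, and among the others 96 of 146 (65.8%, 57.5 to 73.4). The rest of the chromosomes had 32.2% and 57.5%. The excess among peaks with CTCF lay in the outer 20 kb, where 30 of 40 were kept, while farther in it was 45 of 140 (32.1%). The order of the classes was thus the same as in the rest of the genome.

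The ends differed most for ZNF143. At 14q none of the 14 ZNF143 peaks was kept, while at 19q 18 of 22 and at 18p 9 of 13 were. The count of 0 at 14q allows a share of up to about 21.4%. That limit is 3 divided by the 14 peaks, not a Clopper-Pearson limit. The strongest ZNF143 peak lost was the 14q peak at 107183294 to 107183354, with a fold enrichment of 21.8 and 30 reads. It overlapped the position of the strongest subtelomeric CTCF peak. The highest subtelomeric ZNF143 peak of both the wild-type and the 24 h list was at 12q, with a fold enrichment of 32.7 in wild type (133613742 to 133613921) and 28.5 at 24 h (133613726 to 133613961). Over the 31 ends with at least 5 ZNF143 peaks the kept share ran from 0% to 100%, with a median of 56.2%, and no ZNF143 peak was kept at 4 of the 39 ends.

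The wild-type and CTCF-AID 0 h lists differ in neither knockout nor auxin, but the CTCF-AID cells carry the degron tag on CTCF. Lines, tag and libraries cannot be told apart in this comparison. Of the wild-type CTCF peaks 234 of 390 (60%, 54.9 to 64.9) were found in the 0 h list, against 55.0% of the whole list. Of the ZNF143 peaks 260 of 326 (79.8%, 74.98 to 84.0) were found, against 73.4%. The differences from the rest were 5.04 points (0.084 to 9.80) for CTCF and 6.40 (1.68 to 10.4) for ZNF143. For CTCF the interval included 0 without 14q (3.26, -1.92 to 8.26), without the outer 20 kb (3.08, -2.28 to 8.25), at a −log10 q of at least 5 (4.85, -0.152 to 9.65), at 50% reciprocal overlap (4.32, -0.613 to 9.29) and at equal list size (2.25, -3.09 to 6.38), and the sign turned with 1 Mb windows (-0.703). For ZNF143 it included 0 without the outer 20 kb (4.13, -1.22 to 8.72), and the sign turned at 50% reciprocal overlap (-3.33). The CTCF share between these lines was lower than the share kept in the knockout, with 29314 peaks in the 0 h list and 61245 in the knockout list. At the boundary of the 300 kb windows, the wild-type CTCF peak just inside was at 12p, 298365 to 298530, with a fold enrichment of 28.4, and the one just outside at 12q, 133540668 to 133540750, had 14.3.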

How the data were processed

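ChIP-nexus peaks of 9 libraries were used as deposited, 1 narrow-peak list per library. The submitters' processing notes name cutadapt 2.10, Bowtie2 2.3.5.1, SAMtools 1.12, MACS2 2.2.7.1 and deepTools, and the build GRCh37/hg19. Settings, the treatment of reads with several alignments and any pooling were not given in the sources used here. The authors deposited for each peak a fold enrichment (a ratio over local background), −log10 p, −log10 q and a score. The deposited score was not used. Read depth is unknown. A summit count and background were solved from the deposited ratio and −log10 p under a Poisson model, with 1 added to both. This method was chosen once values had been looked at. It left a misfit under 0.002 at 100% of peaks in all 9 lists.

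Groups came from the sample titles. Members and lists were chosen with earlier results of these data known. Densities used the 39 ends with a peak in any list and, for the rest, 2667.6 Mb of 300 kb tiles with a peak in any list, which leaves out tiles without peaks, such as assembly gaps. Ratios of densities carry exact conditional intervals, shares Clopper-Pearson intervals and differences Newcombe intervals. A percentile is a peak's rank by fold enrichment in its list. Named items are the 3 ends with the most peaks and those with the fewest, the highest peak per list, the 5 best-ranked sites found in all lists, the strongest peak found in either list alone for each pair, and the peaks at the window's boundary. Of the 11 sites within 20 kb with a peak in all 9 lists, the 3 whose lowest percentile was highest were named: 19q 59117441 to 59118041, 18p 11602 to 11928 and 2p 11423 to 12075. Coordinates are 1-based on hg19. Alternatives were windows of 100 kb and 1 Mb, the windows without the outer 20 kb or without 14q, the nominal length of all 44 ends, −log10 q of at least 5, 50% reciprocal overlap, lists cut to the shorter size and equal fold enrichment. Calculations were run in scipy 1.17.1, pandas 2.3.3 and numpy 2.4.6 under Python 3.11.15, with plots from matplotlib 3.10.9, and the code was tested on simulated data. Chromosome Y and sequences were not used.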

Additional observations from a re-analysis of the deposited data

Results flagged for a closer look

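Chromosome X was outside the comparisons, but its outermost 300 kb also held peaks, counted from its first base and from its highest peak end. There were 5 ZNF143, 11 CTCF and 12 RAD21 peaks in wild type, and 12 CTCF and 14 RAD21 peaks in the knockout. In CTCF-AID cells there were 5 ZNF143 peaks and 9 CTCF peaks at 0 h, and 5 CTCF peaks at 24 h. The 24 h ZNF143 list had 3. The whole chromosome held 993, 1715 and 1763 peaks in wild type, 2175 and 1974 in the knockout, 835 and 1060 at 0 h, and 304 ZNF143 and 337 CTCF peaks at 24 h. The counts are listed because they lie outside the comparisons; whether the ends of this chromosome were denser than its rest was not tested.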

How the results depend on the processing

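The density ratio stayed above 1 under every alternative run. With 100 kb windows it was 2.88, 2.29 and 2.46 for wild-type ZNF143, CTCF and RAD21, 2.09 and 2.63 for knockout CTCF and RAD21, 2.97 and 4.25 for ZNF143 at 0 h and 24 h, and 3.07 and 4.62 for CTCF at 0 h and 24 h. With 1 Mb windows it moved to 1.61 for wild-type RAD21, 1.69 for knockout RAD21, 2.35 for 24 h ZNF143, and 1.69 and 1.65 for CTCF at 0 h and 24 h. Without the outer 20 kb it was 1.87 and 1.61 for wild-type ZNF143 and RAD21, 1.68 for knockout RAD21, 2.34 for 24 h ZNF143, and 1.79 and 1.84 for CTCF at 0 h and 24 h. Of 54 such values 34 moved by less than the counting error, and of 80 differences between shares 66 did. The differences that moved were, with 100 kb windows, 4.69 points for ZNF143 at RAD21, 3.35 for RAD21 kept in the knockout, 6.00 and 17.5 for CTCF and ZNF143 kept at 24 h, and 13.3 for ZNF143 found at 0 h. With 1 Mb windows CTCF kept in the knockout moved to -3.21 and CTCF found at 0 h reversed to -0.70. With 50% reciprocal overlap the values were 0.46 for ZNF143 at RAD21, -5.23 for CTCF at ZNF143, -7.60 for RAD21 kept in the knockout, and a reversed -3.33 for ZNF143 found at 0 h. With lists of equal size, RAD21 kept in the knockout moved to -4.37 and CTCF kept at 24 h to -10.98. At equal fold enrichment CTCF kept at 24 h moved to 4.21 and knockout RAD21 in wild type reversed to 1.66. The cause was not tested. Stricter −log10 q and leaving out 14q moved no planned difference by more than the counting error, but both took the interval of CTCF found at 0 h across 0. Of the 48 differences added later 9 moved, the most for 24 h CTCF in 0 h, to -29.1 at equal list size.

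No paired analysis was possible because each group had 1 library. Depth is unknown, and with 1 library per group no difference between conditions can be separated from one between libraries. The density on known bases only and the search for motifs were not run, as no hg19 sequence was used.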
